A study of Mus musculus with 18 samples.

Results

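The 10 genes described here are Galnt7, Eif4ebp2, Lmtk2, Tmem185a, Wasf1, Acpp, Slc39a6, Usp46, Alkbh5 and Uhmk1. They were chosen by name for a clear fall in cultured MC38 cells with less Mbtps1, and all 10 were found among the 15596 gene rows of the deposited count table. MC38 cells come from a colon carcinoma of a C57BL/6 mouse and are used as a transplantable tumour. RNA was sequenced from 3 libraries of control cells (genotype Mbtps1 WT) and 3 of knockdown cells (Mbtps1 KD), and from 5 libraries each of control and knockdown tumours that the line formed in wild-type C57BL/6 hosts. The label of the depleted cells is KD, while the series text speaks of a knockout in cells and of a knockdown in tumours. The reagent used, its sequence and whether each line was 1 clone are not given in the sources used here, and neither is the age of the mice or whether replicates were separate cultures or animals. The p-values therefore rest on library-to-library spread, and how much of it is technical is not known. The working name of the group says that its genes were spared in tumours, and for 6 of the 10 the counts went against that name, or for 4 of the 10 when a pair of knockdown tumours that stood apart was left out.

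Mbtps1 encodes site-1 protease, an enzyme of the Golgi that cuts membrane-bound factors such as the SREBPs and ATF6. The 10 genes belong to separate processes: control of mRNA and of translation (Alkbh5, Eif4ebp2, Uhmk1), removal of ubiquitin (Usp46), enzymes and transporters of membranes and the secretory route (Acpp, Galnt7, Slc39a6, Tmem185a), and membrane traffic and actin (Lmtk2, Wasf1). As background on knockdown in general, small interfering RNAs and hairpin RNAs work through Argonaute proteins, which hold a guide strand. A short stretch near the 5′ end of that strand, the seed, can be enough to lower other mRNAs that carry its complement, mostly in their 3′ untranslated regions.

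Earlier work on these same cell libraries had picked out the 6-base word CTCGGA as frequent in mRNAs that fell. It was looked for here in the members, in the longest complete mRNA that GENCODE M21 (GRCm38) gives for each gene, on the mRNA strand. All 10 members held it in the coding part or the 3′ untranslated region, 6 of them in the 3′ region and 4 in the coding part alone, with 31 sites in all. Among 10925 other genes tested in cells, 36.1% held it. The members were chosen for a fall in the same cell libraries that gave the word. Their count beside this share is therefore a description and supports nothing further. The members' mRNAs run from 2429 to 8114 bases, with a median of 4610.5 against 3198 for the other genes, and of the other genes with mRNAs in that range 2822 of 6734 held it. The sites below are shown because they are the sequence the members share. Capitals mark the word, with 8 bases on either side, and each name gives the gene, the part of the mRNA and the place of the 6 bases in GRCm38. All 10 sites in 3′ regions of members are given first.
Galnt7, 3′ untranslated, chr8:57524306-57524311, minus strand: agaggaaaCTCGGAgaattggt
Eif4ebp2, 3′ untranslated, chr10:61431948-61431953, minus strand: tgaaatagCTCGGAgtgtaacc
Eif4ebp2, 3′ untranslated, chr10:61430114-61430119, minus strand: accagtgcCTCGGAtctcacgg
Eif4ebp2, 3′ untranslated, chr10:61429915-61429920, minus strand: ttgggcttCTCGGAccttccca
Tmem185a, 3′ untranslated, chrX:70460960-70460965, minus strand: cctggaacCTCGGAccaccatc
Wasf1, 3′ untranslated, chr10:40937830-40937835, plus strand: gaagatgaCTCGGAgttcgatg
Acpp, 3′ untranslated, chr9:104291067-104291072, minus strand: ctaggtaaCTCGGAatgttaga
Acpp, 3′ untranslated, chr9:104290587-104290592, minus strand: aacacaagCTCGGAgagtactc
Acpp, 3′ untranslated, chr9:104289919-104289924, minus strand: aaacaaaaCTCGGAgcccccct
Usp46, 3′ untranslated, chr5:74000433-74000438, minus strand: gtttgtgaCTCGGAacttcagc

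Lmtk2, Slc39a6, Alkbh5 and Uhmk1 held the word in the coding part and not in the 3′ region. Lmtk2 had 9 such sites, Slc39a6 had 5, Alkbh5 had 2 and Uhmk1 had 1. Mbtps1 itself had 3, all coding. The coding sites of Alkbh5 and Uhmk1, the Lmtk2 site most like a site of Mbtps1, and those of Mbtps1 are shown for comparison.
Lmtk2, coding, chr5:144175700-144175705, plus strand: gacaatgaCTCGGAgccagata
Alkbh5, coding, chr11:60538614-60538619, plus strand: caggaggaCTCGGAccccgagc
Alkbh5, coding, chr11:60554352-60554357, plus strand: tatgagtcCTCGGAagattgcc
Uhmk1, coding, chr1:170211097-170211102, minus strand: tgtggagcCTCGGAatcatttt
Mbtps1, coding, chr8:119546134-119546139, minus strand: aataatacCTCGGAacaaccca
Mbtps1, coding, chr8:119524524-119524529, minus strand: cacccctcCTCGGAgcaagaga
Mbtps1, coding, chr8:119508911-119508916, minus strand: tcgccttcCTCGGAgccatggt

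The bases around the word were also compared between the members and Mbtps1, with no chance level computed for a match. The longest unbroken match between a site of a member and a site of Mbtps1, the word included, ran from 7 to 10 bases. It was 10 bases in Lmtk2, 9 in Galnt7 and Acpp, 8 in Tmem185a, Usp46, Alkbh5 and Uhmk1, and 7 in Eif4ebp2, Wasf1 and Slc39a6. An A preceded the word at 1 or more sites in 7 of the 10 members, and at no site of Mbtps1. The same held for 1235 of 10925 other genes tested in cells (11.3%), of which 3942 had any site. Members with more sites had more places where an A could precede the word, and the count is a description. Whether these sites had a part in the falls was not tested, and the reagent's own sequence could not be set beside them.

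**Figure D1:**
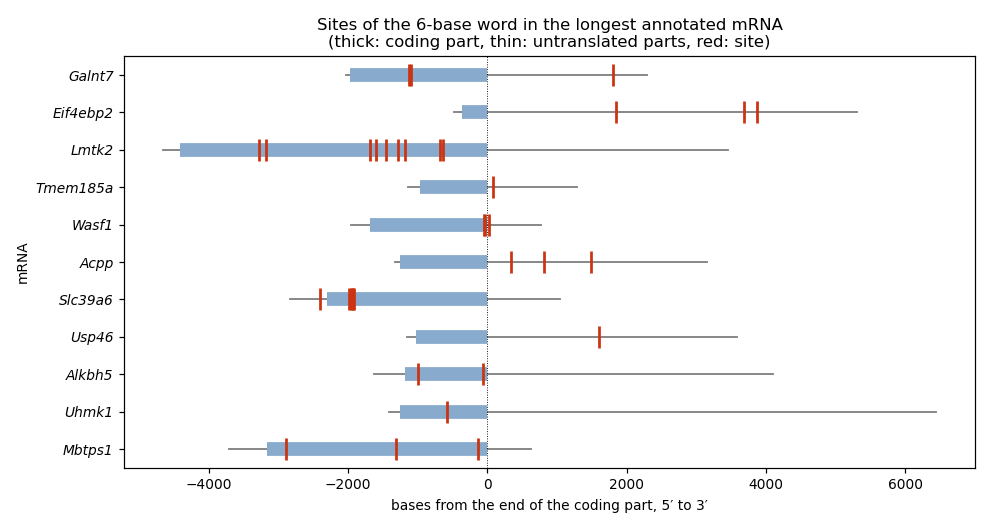
Position of CTCGGA sites (red) along the longest annotated mRNA of each member and of Mbtps1, in bases from the end of the coding part, with the coding part thick and the untranslated parts thin. Sites lie in the 3′ region of 6 members and only upstream of the coding end in Lmtk2, Slc39a6, Alkbh5 and Uhmk1.

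Library totals ran from 14240353 to 15515405 counts in cells and from 19630410 to 32655739 in tumours. Levels are given as CPM, counts scaled to the total of the library, and changes as log2 fold changes of knockdown against control from edgeR. Mbtps1 itself stood at 28.2% of its control mean in knockdown cells (log2 fold change -1.84, SE 0.09, edgeR adjusted p = 3.1e-06) and at 42.8% in knockdown tumours (-1.21, SE 0.09, edgeR adjusted p = 1.2e-05). Tumour RNA comes from host cells as well as from MC38 cells, so in tumours fewer cells of a type and less RNA per cell cannot be told apart. The fixed lists of 6 leukocyte and 8 T and natural killer cell markers were listed at 0 throughout the cultured cells. Each cell library had counts for 12913 to 12969 of the 13014 genes with counts in cells. Each tumour library had counts for 15177 to 15228 of 15274. Whether a 0 in these marker lists means no reads, or a gene left out before deposit, is not known. In tumours the summed T and natural killer markers ran from 38.6 to 88.04 CPM in control and from 115 to 152 in knockdown libraries. Leukocyte markers ran from 564 to 1050.5 and from 784 to 1123, macrophage markers from 2103 to 3577 and from 2246 to 3808, with every gene of these lists detected in tumours. In cells 2 of 7 macrophage markers had counts, with Adgre1 and Csf1r among those at 0. Fibroblast markers ran from 3653 to 4754 in control and from 2763 to 3508 in knockdown tumours, and endothelial markers from 119 to 168 and from 98.5 to 145. Cultured cells also expressed 5 of 7 fibroblast markers, with Lum and Postn at 0, at a summed 1069 to 1790 CPM in control and 1021 to 1233 in knockdown libraries. Between control and knockdown tumours the T and natural killer sums (higher in knockdown) and the fibroblast sums (lower in knockdown) did not overlap. The leukocyte, macrophage and endothelial sums overlapped in tumours, and the fibroblast sums overlapped in cells. The part of these sums in the tumour results was not tested. Of 7 colon epithelial markers 3 were rows of the table: Krt8 had 1.26 to 3.76 CPM in the cultured cells, and the defining markers Epcam and Cdh1 were at 0 there. In tumours it was the reverse: Krt8 was at 0 in both groups, while Epcam and Cdh1 had counts, at a summed 3.15 to 7.07 CPM. Whether these 0 values mean no reads, or genes left out before deposit, is likewise not known. The other 4 colon epithelial markers were not analysed here.

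Knockdown tumour replicates 3 and 5 stood apart from the other knockdown tumours. A chi-square per degree of freedom, comparing the counts of 2 libraries over genes, was 24.4 between these libraries and 52.8 to 129.6 between either and replicates 1, 2 or 4, which differed among themselves by 17.1 to 38.2. One of the pair was the lowest knockdown tumour in 9 of the 10 members, replicate 3 in 7 of them, and together they were the lowest in Alkbh5, Eif4ebp2, Uhmk1 and Usp46. Tumour results are therefore also given without both, a choice made after seeing the data.

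In cultured cells every knockdown library lay below every control library for all 10 members, a pattern seen in 15.8% of the 11905 genes tested. All 10 also passed the edgeR threshold of 0.05 as lower, as did 5.57% of genes. These counts follow from how the members were chosen and are a description only. The log2 fold changes ran from -2.36 in Acpp to -1.12 in Slc39a6, with a median of -1.48 against 0.01 over all genes tested. By p-value the members ranked 2, 3, 4, 5, 7, 8, 10, 11, 13 and 37 in the cell comparison, where Mbtps1 ranked ahead of them. No value marks where the choice stopped: another 27 genes tested in both settings were called lower in cells and fell at least as far as Slc39a6.

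The stated rule of choice was the fall in cells, and the tumour comparison was no part of that rule. The members were nevertheless named with earlier results of these data known. Of the 10, 6 were lower in knockdown tumours and 0 were higher by edgeR over all 13997 genes tested, of which 18.3% were called lower and 20.1% higher. The members that fell were Alkbh5, Acpp, Usp46, Eif4ebp2, Uhmk1 and Tmem185a. Wasf1, Lmtk2, Slc39a6 and Galnt7 did not pass. Without knockdown tumours 3 and 5, 4 members were lower (Alkbh5, Acpp, Usp46 and Eif4ebp2), 0 were higher, and 13.1% of 14163 genes were called lower. With an unadjusted p under 0.05 as the mark, 0 members were higher, likewise with DESeq2 and limma voom at the adjusted threshold. The median over the 10 was -0.39 in tumours, against 0.02 over all genes. In 3 members, Alkbh5, Acpp and Usp46, every knockdown tumour lay below every control tumour, as in 11.3% of genes tested. Each fold change was nearer to 0 in tumours than in cells. That difference was not tested, because the cell values chose the members.

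**Figure D2:**
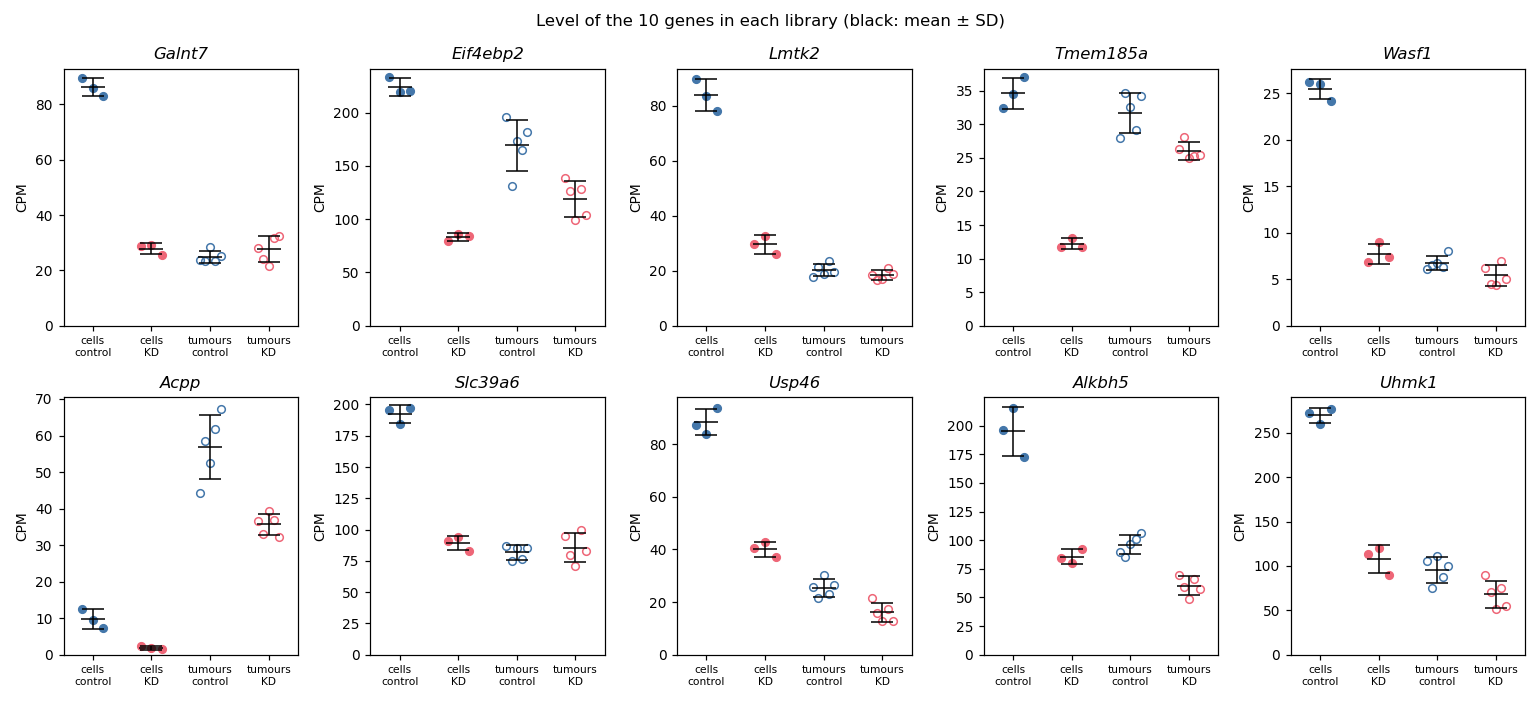
CPM of each member in every library, with control in blue and knockdown in red, cultured cells filled and tumours open, and the mean ± SD in black. Knockdown cells lie below control cells in all 10 panels, and knockdown tumours lie apart from control tumours in those of Acpp, Usp46 and Alkbh5.

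Alkbh5 encodes a demethylase that removes N6-methyladenosine from mRNA. Its level was 197, 215 and 173 CPM in control cells and 84.1, 80.1 and 92.5 in knockdown cells. In tumours it was 89.9, 85.7, 96.4, 101.2 and 106 CPM in control libraries and 69.9, 59.5, 48.8, 65.7 and 57.2 in knockdown libraries. All 5 knockdown tumours were below all 5 controls, and the log2 fold change was -0.66 (SE 0.10, edgeR adjusted p = 3.8e-04). It was -0.56 without knockdown tumours 3 and 5 (edgeR adjusted p = 0.00124).

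Eif4ebp2 encodes a 4E-BP, a protein that binds the cap-binding factor eIF4E and holds back translation. Control cells held 234, 219 and 220 CPM, and knockdown cells 79.2, 86.0 and 84.5. Control tumours held 196, 131, 173, 165 and 182 CPM, and knockdown tumours 138, 126, 99.6, 128 and 103. The tumour groups overlapped through control replicate 2, the lowest control, which lay below knockdown replicate 1. The tumour log2 fold change was -0.49 (SE 0.11, edgeR adjusted p = 0.00502), or -0.37 without knockdown tumours 3 and 5 (edgeR adjusted p = 0.0264). Uhmk1 encodes a serine/threonine kinase that phosphorylates the cell cycle inhibitor p27 and a splicing factor. It stood at 273, 260 and 277 CPM in control cells and at 114, 120 and 90.2 in knockdown cells. Its tumour values were 106, 74.6, 111, 87.5 and 99.7 CPM in controls and 89.4, 70.2, 52.0, 74.8 and 54.7 in knockdowns. Knockdown replicates 1 and 4 lay within the control range, and the log2 fold change was -0.48 (SE 0.14, edgeR adjusted p = 0.0184). Without knockdown tumours 3 and 5, which held its lowest values, it was -0.30 and no longer passed (edgeR adjusted p = 0.0899).

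Usp46, a deubiquitinase that works with the WD-repeat protein WDR48, also fell in tumours. Cell levels were 87.5, 83.9 and 93.7 CPM in controls and 40.4, 42.7 and 37.0 in knockdowns. Tumour levels were 25.6, 21.6, 30.4, 23.1 and 26.3 CPM in controls and 21.5, 15.99, 12.9, 17.4 and 12.8 in knockdowns. The tumour groups were separate by a narrow gap, between 21.5 in knockdown replicate 1 and 21.6 in control replicate 2. The tumour log2 fold change was -0.64 (SE 0.14, edgeR adjusted p = 0.00352), or -0.47 without knockdown tumours 3 and 5 (edgeR adjusted p = 0.0148).

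Acpp, an acid phosphatase gene, had the deepest fall in cells and the lowest level there, at 12.5, 9.63 and 7.23 CPM in controls against 2.46, 1.81 and 1.48 in knockdowns. It was higher in tumours, at 44.2, 58.5, 52.6, 61.8 and 67.1 CPM in controls and 36.7, 32.98, 39.4, 37.0 and 32.3 in knockdowns. The tumour groups did not overlap, and the log2 fold change was -0.66 (SE 0.11, edgeR adjusted p = 0.00102), and -0.68 without knockdown tumours 3 and 5 (edgeR adjusted p = 0.00233). Control tumours held 5.80 times the CPM of control cells, a ratio above 5 that 1.54% of 9965 genes expressed in control cells reached. The Acpp tumour values therefore stand at a level that control MC38 cells in culture did not reach.

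Tmem185a, which encodes a multi-pass membrane protein, was 32.4, 34.5 and 37.0 CPM in control cells and 11.7, 13.1 and 11.7 in knockdown cells. In tumours it was 28.0, 34.6, 32.5, 29.2 and 34.2 CPM in controls and 26.4, 28.1, 24.9, 25.3 and 25.5 in knockdowns. Knockdown replicate 2 lay just above the lowest control, and the log2 fold change was -0.27 (SE 0.09, edgeR adjusted p = 0.0295). This was the call that rested most on single libraries: the adjusted p was 0.0668 without control replicate 2, 0.0792 without control replicate 5 and 0.0619 without knockdown replicate 5. The log2 fold change was -0.26 with knockdown tumours 3 and 5 left out (edgeR adjusted p = 0.0804).

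Galnt7, a glycosyltransferase that adds N-acetylgalactosamine to mucin-type glycans, had one of the clearest falls in culture, from 89.5, 86.0 and 82.9 CPM to 28.8, 29.3 and 25.6. Its tumour values were 23.7, 23.4, 28.6, 23.3 and 25.4 CPM in controls and 28.2, 24.2, 21.7, 31.8 and 32.5 in knockdowns. The tumour groups overlapped, with the highest 2 values in knockdown libraries, and the log2 fold change was 0.16 (SE 0.11, edgeR adjusted p = 0.234). Slc39a6, which encodes the zinc importer ZIP6, went from 196, 184 and 197 CPM to 90.8, 94.1 and 82.7 in cells. In tumours it was 87.1, 74.5, 85.1, 76.5 and 85.4 CPM in controls and 95.0, 79.4, 71.2, 99.5 and 83.0 in knockdowns. Knockdown tumours held both the lowest and the highest of these 10 values, and the log2 fold change was 0.08 (SE 0.09, edgeR adjusted p = 0.486).

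Lmtk2, a membrane-anchored kinase linked to endosome transport, stood at 89.8, 83.3 and 78.1 CPM in control cells and at 29.8, 32.7 and 26.0 in knockdown cells. Its tumour values were 17.7, 21.5, 18.9, 23.5 and 19.7 CPM in controls and 18.5, 16.5, 16.9, 20.9 and 18.9 in knockdowns, a log2 fold change of -0.13 (SE 0.10, edgeR adjusted p = 0.316). Wasf1 encodes WAVE1, a subunit of the complex that switches on Arp2/3 to branch actin filaments. It was 26.2, 26.0 and 24.2 CPM in control cells and 6.84, 8.97 and 7.41 in knockdown cells. Its tumour values were 6.09, 6.56, 6.79, 6.32 and 8.05 CPM in controls and 6.19, 4.54, 4.35, 7.01 and 5.07 in knockdowns, with 3 of 5 knockdown libraries below every control. The log2 fold change was -0.31 (SE 0.15, edgeR adjusted p = 0.108), and without knockdown replicate 4 it was -0.41 (edgeR adjusted p = 0.0425). It was -0.20 without knockdown tumours 3 and 5 (edgeR adjusted p = 0.363).

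**Figure D3:**
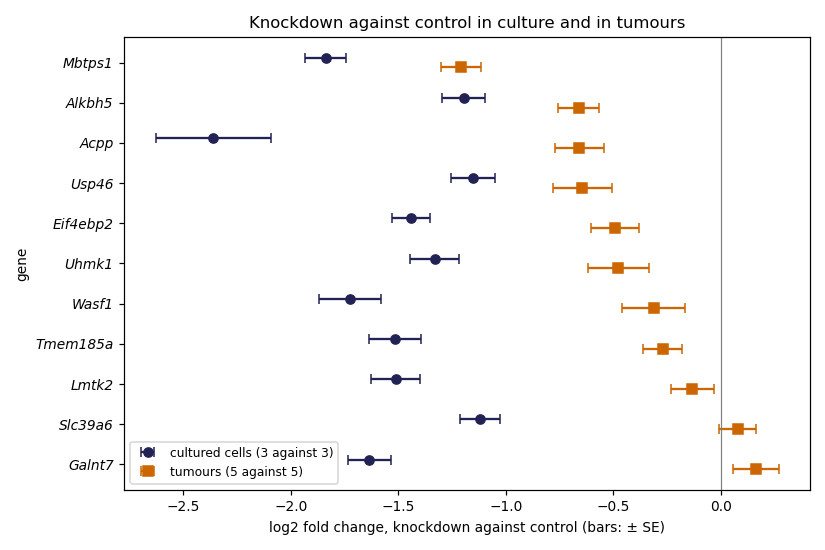
Log2 fold change of knockdown against control, with its standard error, in cultured cells (circles, 3 against 3 libraries) and tumours (squares, 5 against 5) for Mbtps1 and the 10 members, ordered by the tumour value. The tumour value is -1.21 in Mbtps1 and runs over the members from -0.66 in Alkbh5 and Acpp to 0.16 in Galnt7, and each lies to the right of the cell value of the same gene.

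Control tumours held less of most members than control cells: the ratio of mean CPM was under 1 in 9 of 10 and under 0.5 in 7 of 10, against 22.4% of the 9965 genes with at least 5 CPM in control cells, whose median ratio was 0.853. It was 0.242 in Lmtk2, 0.266 in Wasf1, 0.287 in Usp46, 0.289 in Galnt7, 0.355 in Uhmk1, 0.425 in Slc39a6 and 0.492 in Alkbh5. The 2 members nearest to 1 were Eif4ebp2 at 0.755 and Tmem185a at 0.916. Lmtk2, Wasf1, Galnt7 and Slc39a6, which did not pass in tumours, all had ratios under 0.5. So did Usp46, Uhmk1 and Alkbh5, which were called lower in tumours. Eif4ebp2, Tmem185a and Acpp, with the highest ratios, were also called lower. Whether the ratio had a part in the tumour calls was not tested. The ratios share the control cells that took part in the choice of members, so they are a description.

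Falls in cells were seen again in tumours for a minority of other genes. Leaving out the members and Mbtps1, 649 genes tested in both settings were lower in knockdown cells, and 201 of them (31.0%) were also lower in tumours, which is 8.60% of the 2338 genes lower in tumours. Over all 11751 such genes the share lower in tumours was 19.9%. Of the 27 that fell in cells at least as far as Slc39a6, 13 (48.1%) were lower in tumours and 2 were higher, beside 6 and 0 of the 10 members. Without knockdown tumours 3 and 5 the share lower in tumours was 14.1% over all genes, 23.9% of the 649 and again 13 of the 27. The number of genes lower in cells was 192, 291 and 215 without control replicate 1, control replicate 2 or knockdown replicate 1, and the share of them lower in tumours stayed between 25.8% and 41.1% with each cell library left out. Without control replicate 3 the deep group held 43 genes, of which 37.2% were lower in tumours. The lowest such share was 34.4% of 32 genes, without knockdown replicate 2. The highest was 51.4% of 35 genes, without knockdown replicate 3.

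Across other genes the share called lower in cells went up with the number of CTCGGA sites in the coding part and 3′ region. It was 2.81% of 6983 genes with no site, 8.73% of 2795 with 1 site, 14.6% of 840 with 2 sites and 20.8% of 307 with 3 or more. The share called higher went the other way, from 4.65% with no site to 1.303% with 3 or more. Genes with a site in the 3′ region were called lower in 18.1% of cases and those with coding sites alone in 8.23%. Genes with more sites also have longer mRNAs, with a median of 2827 bases for no site and 6317 for 3 or more. Within the members' range of mRNA length, 12.4% of genes with a site and 3.91% of those without were lower in cells. The word was found on these cell libraries, so these shares describe them and support nothing further. With any site the share lower in cells was 10.9%, and it was 3.68%, 5.38% and 4.18% without control replicate 1, control replicate 2 or knockdown replicate 1. With no site the same omissions gave 0.581%, 0.965% and 0.627%.

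In tumours the share called lower also went up with the number of sites. Genes called lower were 16.7% of 8168 with no site, 22.6% of 3250 with 1 site, 25.03% of 939 with 2 sites and 30.2% of 358 with 3 or more, and genes called higher went from 22.7% to 9.50%. The median log2 fold change was 0.05 with no site and -0.15 with 3 or more. Here too mRNA length differed, with a median of 2752 bases for no site and 6116 for 3 or more. Within the members' range of mRNA length, 24.9% of genes with a site and 18.1% of those without were lower in tumours. Genes lower were 17.4% of those with any site and 11.7% of those without when knockdown tumours 3 and 5 were left out. For comparison, the reverse complement TCCGAG, which has the same base content, was looked for in the same way. In cells 11.1% of genes with CTCGGA and no TCCGAG were lower, 3.24% with TCCGAG and no CTCGGA, and 2.60% with neither. In tumours the corresponding shares were 21.2%, 19.9% and 15.1%. As CTCGGA was picked for its frequency in mRNAs that fell in these cells, its excess over TCCGAG in cells follows from that choice, and the gaps in cells and tumours are not compared. TCCGAG was present in 4 of the members, Galnt7, Acpp, Slc39a6 and Uhmk1. The members with CTCGGA in the 3′ region included 4 of the 6 that fell in tumours (Acpp, Usp46, Eif4ebp2, Tmem185a) and 2 of the 4 that did not pass (Galnt7, Wasf1).

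**Figure D4:**
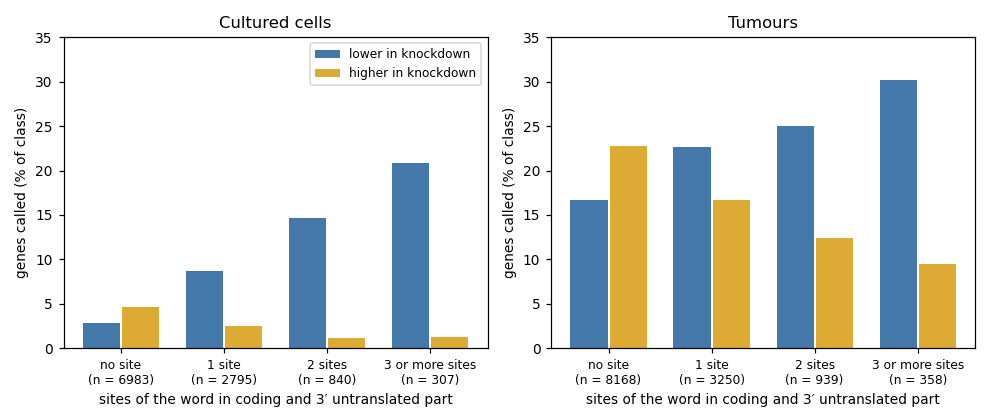
Share of genes called lower (blue) or higher (yellow) in knockdown against control, in percent of each class of genes by number of CTCGGA sites in the coding part and 3′ region, without the members and Mbtps1. In cells the share lower runs from 2.81% with no site to 20.8% with 3 or more sites, and in tumours from 16.7% to 30.2%.

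Relatives and partners of the members were followed in 12 fixed lists of 150 genes. In cells 117 were tested, of which 8 fell and 4 rose, 10.3% in all beside 9.33% over all genes tested. In 5 lists edgeR called 0 genes in either direction. Of 15 cap-binding and 4E-BP genes, 1 had an unadjusted p under 0.05, as higher, and DESeq2 called 1. Of 8 genes of the LMTK list and of 12 small RNA genes, 1 in each direction had an unadjusted p under 0.05, and DESeq2 and limma voom called 0. Among 4 other acid phosphatases and for Tmem185b, 0 passed by any of these. Among the GalNAc transferases and other O-glycan enzymes, 1 of 11 fell (Galnt1, -0.35, SE 0.09) and 1 rose (Galnt18, 0.52, SE 0.14). In the WAVE complex and Arp2/3 list, 2 of 17 fell, the Arp2/3 subunit Arpc4 (-0.46, SE 0.10) and the WAVE subunit Abi2 (-0.39, SE 0.11). In the USP46 list, 2 of 6 fell, the close relative Usp12 (-0.47, SE 0.09) and the phosphatase Phlpp2 (-0.56, SE 0.12). The zinc importers Slc39a10 (-0.55, SE 0.11) and Slc39a11 (-0.41, SE 0.10) fell, 2 of 8 tested. Of 9 zinc exporters and metallothioneins, the exporter Slc30a7 (-0.49, SE 0.10) fell and the metallothionein Mt2 (0.63, SE 0.11) rose. The demethylase relative Alkbh4 (0.74, SE 0.18) was the 1 of 21 m6A genes to pass, and Stmn1, a microtubule regulator, rose (0.45, SE 0.11). The number of these genes that passed in cells was 1, 5, 7 and 3 without control replicate 1, 2 or 3 or knockdown replicate 1.

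In tumours 127 of these relatives were tested, of which 21 fell and 26 rose, 37.0% beside 38.4% over all genes. With knockdown tumours 3 and 5 left out, 31 of the relatives passed. Among those named here, Alkbh8 (0.33), Pam (-0.22), Stmn1 (0.33) and Dicer1 (0.21) then no longer passed, and the log2 fold change of Eif4a2 was 0.56. Of 11 zinc importers 5 were lower, and 0 were higher by edgeR, DESeq2, limma voom or an unadjusted p under 0.05, with the endoplasmic reticulum and Golgi transporter Slc39a7 (-0.53, SE 0.08) having the smallest p. O-glycan enzymes had 6 of 13 higher and 2 lower, led by the branching enzyme Gcnt1 (0.79, SE 0.10) and the transferase Galnt2 (-0.50, SE 0.12). Cap-binding genes had 4 of 16 higher and 3 lower, led by the helicase Eif4a2 (0.84, SE 0.15) and the mTOR complex subunit Mlst8 (-0.46, SE 0.12). The WAVE and Arp2/3 list had 4 of 20 lower, led by Arpc1a (-0.38, SE 0.09), and 2 higher, led by Abi2 (0.33, SE 0.09), which had fallen in cells. The m6A list had 3 of 21 lower, led by the other m6A demethylase Fto (-0.57, SE 0.11), and 4 higher, led by Alkbh8 (0.55, SE 0.14). Of the other lists, Tmem185b rose (0.48, SE 0.11), as did Ppp1r2 of the LMTK list (0.38, SE 0.07), Acp5 of the acid phosphatases (0.72, SE 0.14), the zinc exporter Slc30a4 (0.52, SE 0.08), Usp1 of the USP46 list (0.40, SE 0.11) and Stmn1 (0.36, SE 0.11). The peptide-amidating enzyme Pam, in the UHMK1 list, fell (-0.32, SE 0.10). In the small RNA list 3 of 12 fell, led by Tnrc6b (-0.39, SE 0.09), and Dicer1 rose (0.42, SE 0.12).

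The genes whose pattern over the 16 libraries was most like the mean of the members, after centring within cells and within tumours, were Gng12, Mllt3, Lpgat1, Foxk2 and Nhsl1. Their Pearson r with the members' profile ran from 0.960 to 0.981 among 9624 genes compared, as a description of libraries that share the same 4 groups. Each held CTCGGA in the coding part or 3′ region, with 3, 3, 2, 1 and 3 sites in that order. Among other genes tested in cells, 36.1% held it. The word and this likeness both drew on the same cell libraries, so the presence of the word in these genes is a description only. Their log2 fold changes were -0.98, -1.43, -1.07, -0.65 and -0.77 in cells. The likeness drew on the tumour libraries as well, so the tumour values of these genes are a description and not a test. Their log2 fold changes in tumours were -0.36 (SE 0.10) in Mllt3 and -0.30 (SE 0.10) in Lpgat1. They were -0.14 (SE 0.07) in Gng12, -0.11 (SE 0.08) in Foxk2 and -0.09 (SE 0.08) in Nhsl1. With knockdown tumours 3 and 5 left out, the values were -0.29 in Mllt3 and -0.21 in Lpgat1.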

How the data were processed

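The authors deposited whole-number read counts per gene symbol for the 16 RNA libraries and read counts per guide for 2 screen libraries, per the file headers. The tools listed, per the submitters' processing notes, are STAR 2.7.1a, HTSeq 0.13.5, cutadapt 1.18, FastQC 0.11.9, Cufflinks 0.17.3 and SAMtools 1.3.1, in roles not given. The notes also name the human build hg38, although the symbols are those of mouse genes. The mouse build, and whether counting used strand, are not given in the sources used here, so overlapping genes cannot be separated. RNA library totals lie between 14240353 and 32655739 counts.

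Tests used edgeR 4.0.16 in R 4.3.3 (TMM, filterByExpr, robust quasi-likelihood F test, two-sided, Benjamini-Hochberg over all genes tested, threshold 0.05), cells and tumours fitted apart. Of genes with counts, 1109 (cells) and 1277 (tumours) were filtered out, none of them a member. SEs were derived from the fold change and the F statistic. The script was tested on simulated counts. Alternatives used DESeq2 1.42.0, limma 3.58.1, other scalings and filters, a replicate block, each library left out and, added later, knockdown tumours 3 and 5 left out together.

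Groups follow the sample titles. The members, lists, the word CTCGGA and its reverse complement were chosen with earlier results of these data known. Named genes are the members, Mbtps1, relatives past the threshold (at most 3 per list and direction, of which the text gives the first in tumours) and the 5 genes most alike in log2(CPM + 1). Sites were read from GENCODE M21 mRNAs, which matched 10936 of 11905 genes tested in cells and 12726 of 13997 in tumours. Replicate numbers do not pair the libraries.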

Additional observations from a re-analysis of the deposited data

How the results depend on the processing

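The count of members lower in tumours was 6 under each of the 7 other scalings, filters, tests and the replicate block, and between 5 and 7 with each tumour library left out. Without knockdown tumours 3 and 5 it was 4, and 31 relatives passed in tumours. The count of members higher was 0 throughout. No fold change of a member changed sign in either comparison under these alternatives. In tumours 4746 to 5940 genes changed under other settings, and 4069 to 5833 with a library left out, and 3754 without the pair, against 5377. The cell comparison was less steady: 1111 genes changed, 290 to 1531 with a library left out (290, 466 and 330 without control replicate 1, control replicate 2 and knockdown replicate 1), and among the relatives 12 changed, 1 to 15 with a library left out. Deviations of libraries with the same replicate number had correlations of -0.35 to 0.02 for cells and -0.35 to 0.24 for tumours. With the replicate block 508 genes and 7 relatives changed in cells, and 6.19% of genes with CTCGGA and 1.03% of those without were lower there. All 10 members held the word also in the mRNA with the longest coding part, a choice added after seeing the data. Of 22 groups of 5 tumour values (10 members and Mbtps1), 0 held a single library far from the rest, a check that cannot see a pair standing apart such as knockdown tumours 3 and 5.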

Other observations

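In the pooled CRISPR screen, which sequenced guides from MC38 cells grown in C57BL/6 and in Rag1-knockout mice, 2 of the 10 genes had guides. With 1 library for each host no test could be made. The 4 Lmtk2 guides had log2 ratios of Rag1-knockout over C57BL/6 CPM (pseudocount 1) of -0.88, 0.02, -0.50 and 0.90. The 4 Slc39a6 guides had 0.78, -1.27, -0.80 and -0.76. Over all 18146 guides the median was -0.12 and the quartiles were -0.69 and 0.47, so both genes had guides outside the quartiles in both directions. Their reads ranged from 477 to 4225 in the C57BL/6 library and from 437 to 2595 in the Rag1-knockout library.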
